A study of Mus musculus with 10 samples.

Results

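Fibrillar and type VI collagens were examined as 10 genes: Col1a1, Col1a2, Col3a1, Col5a1, Col5a2, Col2a1 and Col11a1, which encode fibrillar chains, and Col6a1, Col6a2 and Col6a3, which encode chains of type VI collagen. The members were taken by gene symbol as every probe set annotated to 1 of these genes alone. This gave 19 probe sets, 15 for the 7 fibrillar genes and 4 for the 3 type VI genes, out of 34958 probe sets with a single symbol, which covered 18193 genes. A probe set is a group of short oligonucleotides on the array that read 1 transcript, and its value here is a log2 expression value, so a difference of 1 on this scale is a doubling.

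The RNA came from CGR8, a mouse embryonic stem (ES) cell line of strain SV129, and was hybridised to 10 Affymetrix arrays. EBIO is a small molecule that opens potassium channels gated by calcium (the SK and IK families), and the study asked what it does to ES cells and to cells derived from them. Untreated ES cells (n = 3) and ES cells kept in 1 mM EBIO over 3 days (n = 3) were taken at passages 25, 26 and 27. The other arrays came from cells grown for 5 days as embryoid bodies, the cell aggregates in which ES cells differentiate, and then for a further 10 days either without EBIO (n = 2) or with it (n = 2), at a dose that the labels do not give. All groups therefore rest on 1 cell line, the labels name no sorting of the differentiated cells, and the design text calls the samples of a group independent experiments.

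Fibrillar collagens are long, rope-like proteins that assemble outside the cell into the fibrils of connective tissue. Types I and III make up most of the fibril mass of skin, vessel wall and heart, types V and XI are minor chains that nucleate fibrils and limit their width, and type II is the main fibril of cartilage. Type VI collagen forms fine beaded filaments close to cells and basement membranes. In the heart these proteins are made chiefly by fibroblasts rather than by the muscle cells.

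ES cell and other marker genes were set against the labels first. The 5 ES cell markers had a mean log2 level of 11.18 to 11.41 on the untreated ES arrays and of 5.58 to 5.74 on the untreated differentiated arrays, where Pou5f1, Nanog and Zfp42 lay under the array median. Of 12 fibroblast and mesenchyme markers, 10 lay under the median on every untreated ES array and 1, Prrx1, on both untreated differentiated arrays. Replicates of a group correlated at 0.982 to 0.997 over all probe sets, with the lowest values for the third untreated ES array. The arrays of the ES and the differentiated stage had been normalized as separate sets: their quantiles differed by at most 0.0935 on average within a stage and by at least 0.913 between stages. Array medians were 4.52 to 4.62 in the ES set and 5.59 to 5.68 in the differentiated set, so levels are compared within a stage, and across stages only as a description.

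Promoter sequences of 3 members are given to set beside the values: Col1a2, the member that differed most with EBIO, Col5a1, which was called in both stages and in opposite directions, and Col6a1, which fell furthest among the type VI genes. They are RefSeq windows of 300 bases on build GRCm38.p6, from 250 bases before the transcription start to 50 after it, written 5′ to 3′ on the strand of the gene. The windows are chr6:4505368-4505667 on the plus strand for Col1a2, chr2:27886175-27886474 on the plus strand for Col5a1 and chr10:76725995-76726294 on the minus strand for Col6a1. Capitals mark each match, on either strand, to the CCAAT box (CCAAT), the GC box (GGGCGG) or the TATA box (TATAAA), and none of the matches printed here overlap.
Col1a2: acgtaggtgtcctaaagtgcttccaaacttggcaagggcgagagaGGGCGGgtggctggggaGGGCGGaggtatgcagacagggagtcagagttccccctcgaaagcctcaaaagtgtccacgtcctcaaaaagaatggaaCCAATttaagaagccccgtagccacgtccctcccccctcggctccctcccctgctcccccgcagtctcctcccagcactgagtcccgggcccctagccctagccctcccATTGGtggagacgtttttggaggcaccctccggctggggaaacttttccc
Col5a1: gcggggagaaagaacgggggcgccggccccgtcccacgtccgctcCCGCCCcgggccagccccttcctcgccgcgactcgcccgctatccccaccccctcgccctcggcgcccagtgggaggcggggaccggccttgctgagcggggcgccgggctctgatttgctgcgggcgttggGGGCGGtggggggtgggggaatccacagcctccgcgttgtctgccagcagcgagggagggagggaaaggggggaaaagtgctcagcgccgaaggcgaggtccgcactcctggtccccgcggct
Col6a1: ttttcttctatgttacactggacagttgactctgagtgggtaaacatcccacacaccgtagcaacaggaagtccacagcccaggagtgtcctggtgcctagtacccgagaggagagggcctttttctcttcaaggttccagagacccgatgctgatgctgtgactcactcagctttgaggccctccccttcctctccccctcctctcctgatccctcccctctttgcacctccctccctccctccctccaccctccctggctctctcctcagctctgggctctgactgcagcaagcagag
The Col1a2 window held a CCAAT box whose first base lies at -109, a reversed one at position 1, and GC boxes at -205 and -188. The Col5a1 window held GC boxes at -205, reversed, and at -73, and was 75% G or C. The Col6a1 window held none of these letter strings. The RefSeq table covered 7 of the 10 members with 8 entries, of which 2 held a CCAAT box, 5 a GC box and 1, that of Col3a1, a TATA box. Among all 32851 windows of the table the shares were 37.4% for CCAAT, 35.7% for GGGCGG and 13.6% for TATAAA. On chromosome 1 no protein-coding gene lies between Col3a1 and Col5a2, and on chromosome 10 none lies between Col6a1 and Col6a2.

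In differentiated cells all 10 collagen genes were lower with EBIO, 9 of them by at least 2-fold. Col1a1, Col1a2, Col3a1, Col5a1, Col5a2, Col11a1 and the 3 type VI members fell by that much, whereas Col2a1, the cartilage gene, differed by 1.35-fold only. The median difference of the 10 genes was -4.84 on the log2 scale, -3.03 for the 7 fibrillar and -4.94 for the 3 type VI genes, against 0.02 over all 12330 genes tested. Over all genes tested, 32.6% were called lower and 33.3% higher at a Benjamini-Hochberg adjusted p under 0.05 in limma, the linear model used throughout. Col6a1 and Col6a3 passed the filter on dim values through the control arrays alone, which left room only for a fall. With no filter all 10 members were still called lower. On every member the 2 EBIO arrays lay below the 2 control arrays, but the share of all genes with such groups was not counted. The members were measured on the same 4 arrays and are not independent of each other. In such bulk RNA, fewer cells that express a gene and less of its RNA per cell cannot be told apart.

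Type I collagen, the main fibril protein, fell furthest. Col1a2 read 13.67 and 13.48 on the 2 control arrays and 5.80 and 6.14 on the 2 EBIO arrays. That is a difference of -7.61 ± 0.13 (SE, limma), or 196-fold, with adjusted p = 1.58e-06. Only 5 genes of the 12330 fell further, and with EBIO Col1a2 stood at the 52.6 to 56.8 percentile of its array, down from the 99.6 to 99.7 percentile. Col1a1, its partner chain, read 13.09 and 12.90 in controls against 7.11 and 7.24 with EBIO. The 2 groups lay far apart, the difference was -5.82 ± 0.09 (56.6-fold, limma adjusted p = 1.56e-06), and Col1a1 ranked 31 from the largest fall.

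Type III collagen, the partner of type I in distensible tissues, also fell but kept a high place on the array. Col3a1 read 14.02 and 14.00 in controls and 11.20 and 10.76 with EBIO, and so stayed at the 94.5 to 96.3 percentile of the array. The difference was -3.03 ± 0.15 (SE), 8.16-fold, with limma adjusted p = 2.37e-05. The control values lay near the array maximum of 14.58 to 14.60, where differences can be compressed too. The second Col3a1 probe set, which was dimmer, went from 12.50 and 12.29 to 8.85 and 8.63, a difference of -3.66.

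The minor fibrillar chains differed among themselves. Col5a2 read 12.29 and 12.28 in controls and 7.34 and 7.61 with EBIO, a difference of -4.80 ± 0.10 (27.9-fold, limma adjusted p = 2.10e-06). Its partner in type V collagen, Col5a1, read 11.62 and 11.43 in controls and 10.01 and 10.18 with EBIO, a difference of -1.43 ± 0.10 (2.69-fold, limma adjusted p = 9.14e-05). Col5a1 thus stayed at the 90.9 to 91.6 percentile of its array, while Col5a2 went to the 68.4 to 70.4 percentile. The difference between the changes of these genes was not tested. Col11a1, a type XI chain, read 8.37 and 8.46 in controls and 6.36 and 6.30 with EBIO, which is -2.09 ± 0.07 (4.25-fold, limma adjusted p = 8.51e-06).

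Col2a1, the chain of cartilage collagen, showed the smallest difference of the 10. It read 6.06 and 6.10 in controls and 5.49 and 5.80 with EBIO, close to the array medians. The groups did not overlap, and the difference of -0.44 ± 0.11 (SE) had limma adjusted p = 0.0166. That call was lost without control array 1 (adjusted p = 0.0703), without control array 2 (0.0856), without EBIO array 1 (0.0584) and in a limma fit over all 4 groups (0.110). Of 13 cartilage markers, 8 lay under the median on both untreated differentiated arrays, among them Acan, Comp and Matn1, and on both EBIO arrays 10 did.

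The 3 type VI genes all fell, and their changes were not tested against each other. Col6a1 read 10.83 and 10.73 in controls and 5.10 and 5.36 with EBIO, a difference of -5.54 ± 0.11 (46.7-fold, limma adjusted p = 1.79e-06). Col6a2, its neighbour on chromosome 10, read 11.71 and 11.55 in controls and 6.60 and 6.91 with EBIO, a difference of -4.87 ± 0.12 (29.3-fold, limma adjusted p = 2.93e-06). Col6a3, the largest chain, read 10.10 and 10.23 in controls and 4.93 and 5.52 with EBIO, a difference of -4.94 ± 0.19 (30.7-fold, limma adjusted p = 1.11e-05). With EBIO both Col6a1 and Col6a3 lay under the array median, at the 42.3 to 46.7 and 39.6 to 48.9 percentiles. Differences are compressed at that end of the scale, so their folds are likely to be understated.

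**Figure D1:**
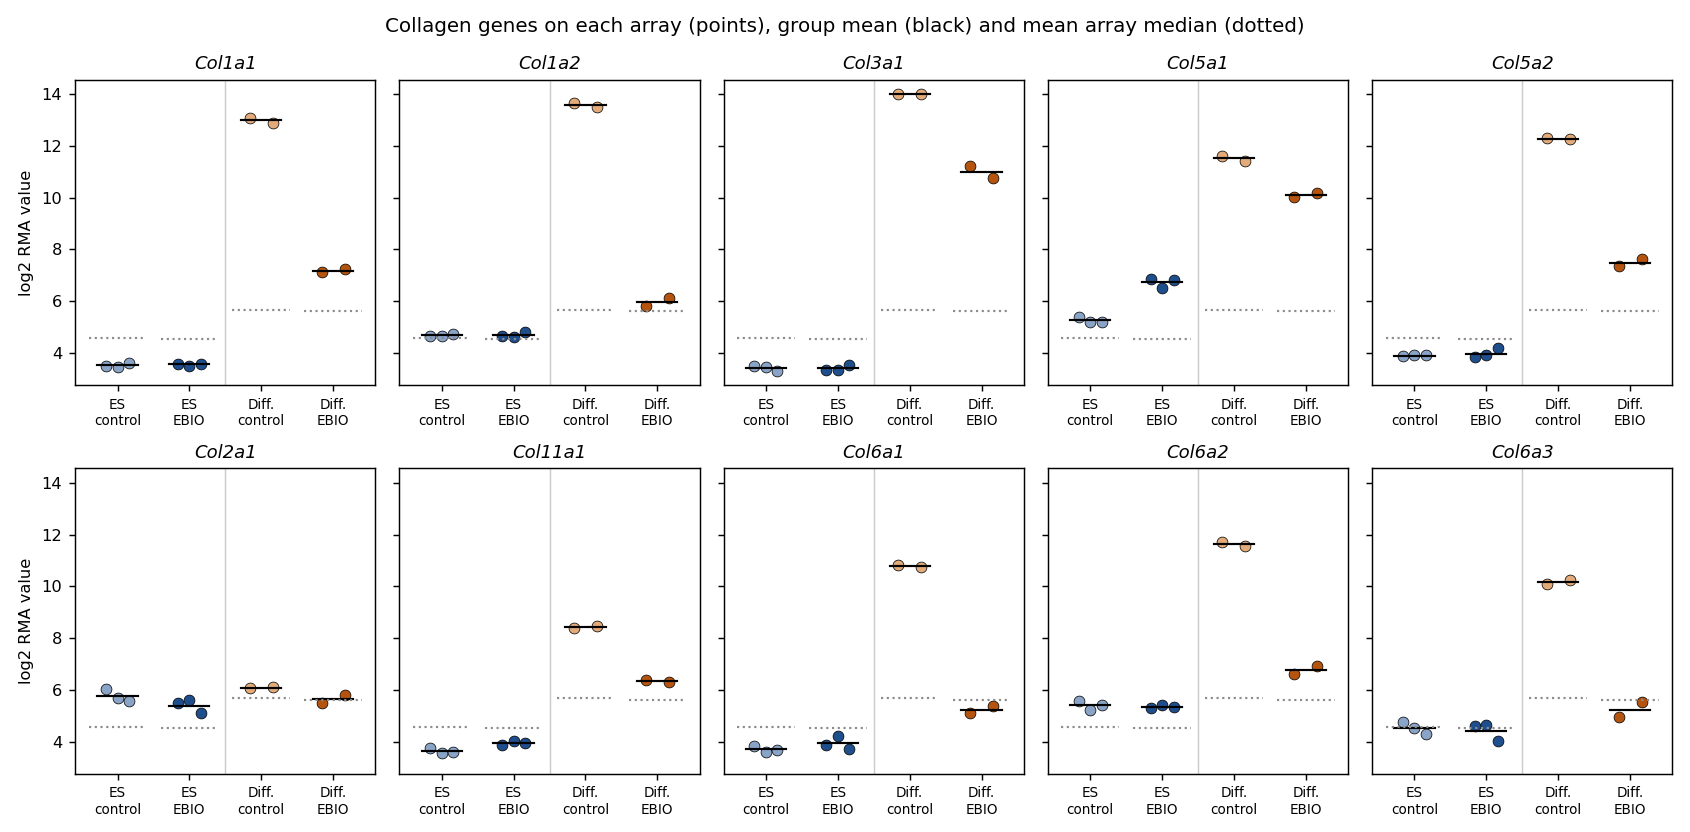
Log2 RMA value of each collagen gene on each of the 10 arrays (points), with the group mean (black line) and the mean of the array medians (dotted line). Each panel is 1 gene, on a shared vertical axis, and the vertical grey line parts the 2 separately normalized stages. In differentiated cells the EBIO points lie below the control points in all 10 panels, and in ES cells only Col5a1 and Col11a1 show groups that do not overlap. The share of all genes with such groups was not counted.

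The probe sets of a gene gave the same direction in differentiated cells. Of the 19 probe sets, 18 passed the filter on dim values and all 18 were lower with EBIO, against 27.5% of 23666 probe sets called lower and 33.6% called higher by limma. The exception is the third Col1a2 probe set, with 3.84 and 4.06 in controls and 2.90 and 2.89 with EBIO, which lay under the array median throughout and was not tested. The other Col1a1 and the second Col1a2 probe set, like those of Col6a1 and Col6a3, passed the filter through the control arrays alone. For these the filter left room only for a fall, so their direction adds no support. The size depended on the probe set for several genes. The second Col1a2 probe set read 12.62 and 12.41 in controls and 4.01 and 3.40 with EBIO, a difference of -8.81 or 449-fold, whereas averaging all 3 Col1a2 probe sets gave -5.83. The second Col6a2 probe set gave -3.72, against -4.87 for the one that stood for the gene. The other Col1a1 probe set gave -6.21, the other Col5a2 probe set -4.94, the other Col11a1 probe set -1.97, and the other pair of Col5a1 probe sets -1.53 and -1.07.

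**Figure D2:**
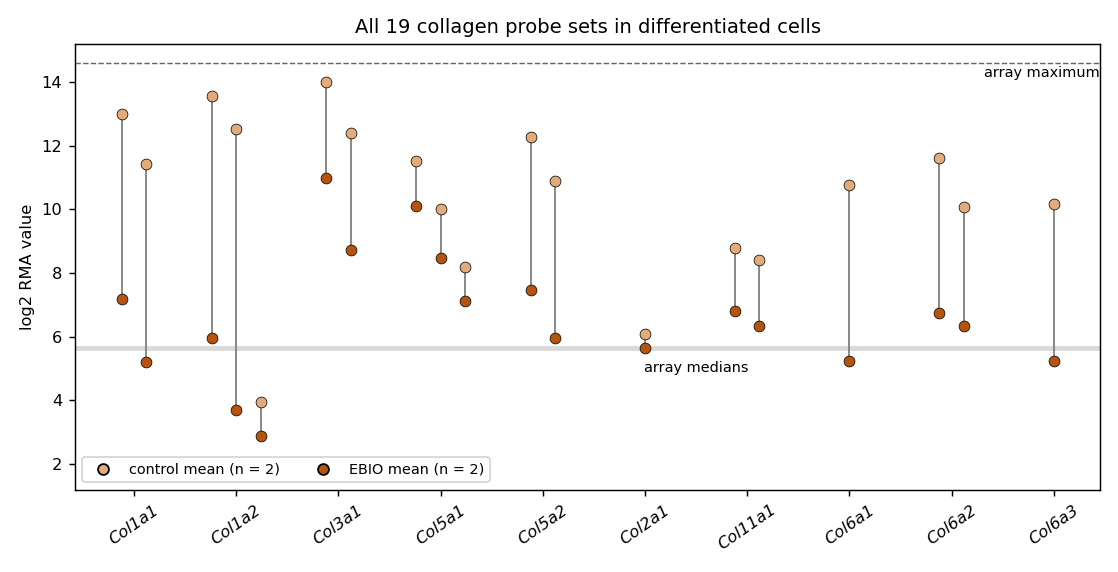
Mean log2 RMA value of each of the 19 collagen probe sets in untreated (light) and EBIO-treated (dark) differentiated cells, n = 2 arrays each, joined by a line. The grey band spans the array medians and the dashed line is the array maximum. Each gene's probe sets fall together, and the third Col1a2 probe set lies under the array median in both groups.

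In ES cells 5 of the 10 collagen genes were too dim to test, and 1 of the other 5 changed with EBIO. Col5a1 rose, and Col1a2, Col2a1, Col6a2 and Col6a3 were not called. No tested member fell. Over the 12096 genes tested in ES cells, 23.5% were called higher and 21.2% lower by limma, so 1 of 5 is close to the background share. The median difference was -0.04 over the 5 tested members and -0.04 over all genes tested.

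Col5a1 read 5.38, 5.19 and 5.19 on the untreated arrays and 6.84, 6.52 and 6.80 on the EBIO arrays. All 3 EBIO arrays lay above all 3 controls, with a difference of 1.47 ± 0.14 (SE), 2.76-fold, and limma adjusted p = 5.07e-05. Its place within the array went from the 61.9 to 64.7 percentile to the 75.1 to 77.8 percentile. Of the 19 collagen probe sets 7 were tested in ES cells and 2 were called higher, both of Col5a1, against 21.8% called higher and 17.6% called lower of 23180 probe sets. The second Col5a1 probe set read 5.88, 5.74 and 5.79 without and 6.44, 6.62 and 6.50 with EBIO, a difference of 0.72. The third read 4.28, 4.39 and 4.24 without and 4.30, 4.64 and 4.64 with EBIO and was too dim to test. With the mean of the 3 probe sets the Col5a1 difference was 0.80.

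The other testable members gave small differences. Col1a2 read 4.66, 4.64 and 4.73 without and 4.65, 4.60 and 4.79 with EBIO, a difference of 0.00 ± 0.12 (SE, limma adjusted p = 0.981). Col6a2 read 5.56, 5.21 and 5.43 without and 5.32, 5.42 and 5.33 with EBIO, and Col6a3 read 4.76, 4.54 and 4.29 without and 4.58, 4.64 and 4.02 with EBIO. Their groups overlapped, with differences of -0.04 ± 0.13 and -0.11 ± 0.20 (limma adjusted p = 0.808 and 0.678). Col2a1 read 6.04, 5.67 and 5.56 without and 5.49, 5.60 and 5.09 with EBIO, a difference of -0.36 ± 0.18 (limma adjusted p = 0.139). With passage as a replicate block, which pairs the arrays of a passage, Col2a1 was called lower (limma adjusted p = 0.0448).

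The remaining 5 members were too dim in ES cells to be tested. Col1a1 lay between 3.46 and 3.60 on all 6 arrays, Col3a1 between 3.29 and 3.53 and Col5a2 between 3.82 and 4.17, with overlapping groups. Col6a1 read 3.84, 3.59 and 3.66 without and 3.86, 4.21 and 3.72 with EBIO. Col11a1 read 3.75, 3.55 and 3.60 without and 3.86, 4.03 and 3.93 with EBIO, a difference of 0.30 between groups that did not overlap. With no filter its limma adjusted p was 0.0598, and in a fit over all 4 groups 0.0258.

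The ratio of 3′ to 5′ signal of Actb, a measure of RNA integrity and labelling, also differed between the ES groups. On the log2 scale it was 0.42 ± 0.09 (SD, n = 3) without and 0.14 ± 0.06 with EBIO, while in differentiated cells it was 0.43 ± 0.04 (SD, n = 2) without and 0.46 ± 0.02 with EBIO. The same ratio of Gapdh did not differ in this way in ES cells, with -0.005 ± 0.073 (SD, n = 3) without and 0.023 ± 0.019 with EBIO. The part of the Actb difference in the rise of Col5a1 was not tested.

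**Figure D3:**
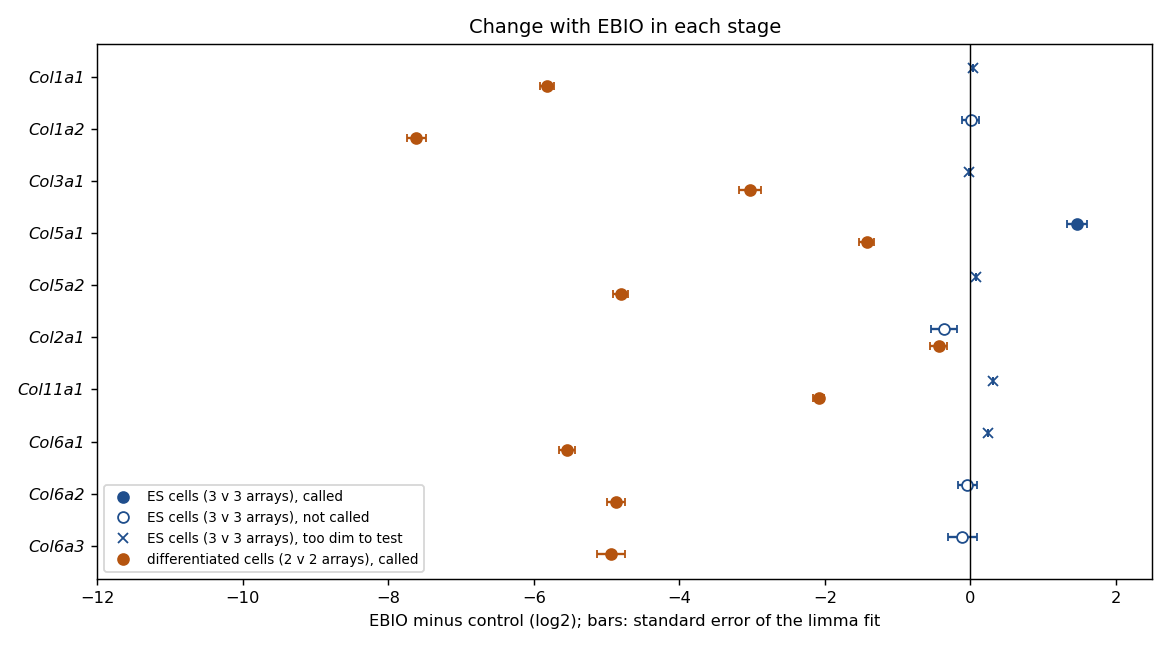
Difference between EBIO and control (log2) for each collagen gene, in ES cells (blue, 3 against 3 arrays) and in differentiated cells (orange, 2 against 2 arrays), with the standard error of the limma fit as bars. Filled points were called, open points were tested and not called, and crosses were too dim to test. The orange points lie left of 0 for all 10 genes, and Col5a1 is the only filled blue point.

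The difference between the EBIO effects of the 2 stages was tested in a fit over the 4 groups, in which any constant shift between the separately normalized sets cancels. Of the 10 members 9 had a lower effect in differentiated than in ES cells and 1, Col2a1, was not called. Over 13706 genes tested, 25% were called lower and 20.5% higher. The estimates were -7.62 ± 0.18 (SE) for Col1a2, -5.85 ± 0.15 for Col1a1 and -5.78 ± 0.22 for Col6a1. For Col5a1, which rose in one stage and fell in the other, it was -2.89 ± 0.19 (limma adjusted p = 5.03e-07). For Col2a1 it was -0.07 ± 0.26 (limma adjusted p = 0.843). For the members that were dim in ES cells a fall there could hardly have been registered, and the estimate for them is close to their difference in differentiated cells.

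The level of the collagen genes in the untreated cells of the 2 stages is given without a test. The deposited values were higher in differentiated than in ES cells for all 10 genes, by 0.33 for Col2a1 to 10.59 for Col3a1, with a median of 6.67 against 0.93 over all 18193 genes. After quantile normalization of all arrays together the median was 5.61 for the members and -0.11 for all genes, and 9 of the 10 members were higher. The exception was Col2a1, which turned from 0.33 to -1.17 and lay at the 66.6 to 72.3 percentile of the ES arrays and at the 55.1 to 55.2 percentile of the differentiated arrays. Col3a1 went from the 7.37 to 13.5 percentile to the 99.9 percentile. Col1a1 went from the 12.9 to 19.0 percentile to the 99.3 to 99.4 percentile. Col5a1 and Col6a2 were already above the median in ES cells, at the 61.9 to 64.7 and 62.4 to 67.0 percentiles, and stood at the 96.9 to 97.3 and 97.3 to 97.6 percentiles in untreated differentiated cells. With EBIO the differentiated cells had Col3a1 at the 94.5 to 96.3 and Col5a1 at the 90.9 to 91.6 percentile, and the other 8 members between the 39.6 and 70.4 percentiles.

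Genes that build, bind or degrade collagen were taken from a list of 80 genes in 10 roles, of which 73 had a named probe set. In differentiated cells 39 of 60 tested were lower and 10 higher with EBIO, with a median of -0.60, where 32.6% of all genes tested were lower and 33.3% higher. In ES cells 20 of 48 were higher and 8 lower, with a median of 0.06, where 23.5% of all genes were higher and 21.2% lower. The difference between the effects was called lower for 36 and higher for 2 of 65, where 25% of all genes were lower and 20.5% higher. The counts by role and by marker list that follow stand against the same shares, as a description only. Members and lists were chosen with earlier results of these data known. The calls here and in the marker lists are limma's, adjusted over all genes tested.

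Genes that modify and fold the chains mostly rose in ES cells and mostly fell in differentiated cells, and the difference between the effects was called lower for 12 of 16. In ES cells 9 of 14 rose and 1 fell: Serpinh1, the collagen-specific chaperone of the endoplasmic reticulum, rose by 2.83 (log2) and P4ha1, a subunit of prolyl hydroxylase, by 2.62, while Crtap, part of the prolyl hydroxylation complex, fell by 0.61. In differentiated cells 12 of 15 fell and 1 rose, with P3h3 at -1.63, P4ha2 at -1.60 and P3h2 at 0.40. P4ha3, among the 12, lay under the median on both EBIO arrays, so the filter left room only for a fall. The 12 falls were smaller than those of most collagen chains. Serpinh1 went from 12.58 to 12.01, a difference of -0.56, where Col1a1 differed by -5.82.

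Secretion genes, which help large procollagen leave the endoplasmic reticulum, gave calls in both directions in each stage. Of 5 tested, 3 rose and 1 fell in ES cells, with Creb3l2 at 1.08, Mia3 at 0.97 and Sec23a at -0.46. Creb3l2 lay under the median on every untreated ES array, so it could only rise there. In differentiated cells 2 rose and 2 fell, with Creb3l2 at 0.71, Mia3 at 0.60, Sec24d at -0.92 and Sec23a at -0.27. Of the genes for propeptide removal, Bmp1, the main C-proteinase, rose in both stages, by 2.71 in ES cells and 0.55 in differentiated cells. Pcolce, which enhances that proteinase, fell in both, by 3.83 and by 4.17. Pcolce2 fell by 2.98 in ES cells, and Adamts3, an N-proteinase, fell by 1.50 in differentiated cells.

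Cross-linking enzymes fell along with the collagens in differentiated cells. All 3 tested fell: Lox, lysyl oxidase, went from 12.37 to 6.68, a difference of -5.69, and Loxl1 differed by -3.67. Loxl3, the other gene tested, lay under the median on both EBIO arrays, so the filter left room only for a fall. In ES cells 1 cross-linking gene, Loxl4, was bright enough to test and was not called. Among the collagen receptors, Antxr1, an anthrax toxin receptor that binds type VI and other collagens, differed by -4.30 in differentiated cells, Itga10 by -1.46 and Itgb1 by -0.46, and the other 4 tested were not called. Itga10 lay under the median on both EBIO arrays, so it could only fall. In ES cells 1 of 4 receptors was called, Itgb1, the shared beta chain of the collagen-binding integrins, at 2.24.

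Uptake and breakdown genes all fell in differentiated cells, 4 of 4 tested, with Mmp2, a gelatinase, at -3.91 and Mmp14, its activator, at -2.45. Ctsk, also among the 4, lay under the median on both EBIO arrays, so the filter left room only for a fall. In ES cells Mrc2, an endocytic collagen receptor, rose by 1.81, while Mmp2 fell by 1.27 and Mmp14 by 1.01. Mmp14 lay under the median on every EBIO array of ES cells, so it could only fall there. Of the transcription and signalling regulators, 8 of 15 fell and 5 rose in differentiated cells, the rises near the 33.3% of all genes called higher. The largest falls were Tgfb3 at -3.89 and Tgfbr2 at -2.07, and the largest rises Twist1 at 0.61 and Tgfb2 at 0.49. In ES cells 5 of 11 rose and 2 fell, with Tgfbr2 at 2.30, Tgfbr1 at 1.51, Nfyb, a subunit of the CCAAT-binding factor, at -0.96 and Sp1, which binds GC boxes, at -0.50. Nfya, another subunit of the CCAAT-binding factor, was called higher in both stages, at 0.52 in ES cells and 0.47 in differentiated cells. In differentiated cells Nfyc, a further subunit, was called higher at 0.33 and Nfyb lower at -0.56. Tgfbr2, a receptor of the fibrosis-promoting TGF-beta ligands, rose in ES cells and fell in differentiated cells. The difference between its effects was -4.38. It lay under the median on every untreated ES array, so the filter left room only for a rise there. Serpinh1, P4ha1, Itgb1 and Mrc2, among others, were also called higher in ES cells and lower in differentiated cells. A link of any of them to Col5a1 was not tested.

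Among collagens outside the 10 members, 4 of 6 fibril-associated genes, whose products decorate fibrils, fell in differentiated cells, with Col14a1 at -3.34 and Col9a2 at -2.41, and none of 4 was called in ES cells. Col9a2 lay under the median on both EBIO arrays of differentiated cells, so it could only fall. Of the other fibrillar genes Col27a1 differed by -1.04 and Col11a2, a type XI chain, by 0.47 in differentiated cells. Col11a2 went from 5.31 to 5.78 and lay under the median on both control arrays, so it could only rise. Of the other type VI chains, Col6a4 and Col6a5 were too dim to test in either stage, and Col6a6 had no named probe set.

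**Figure D4:**
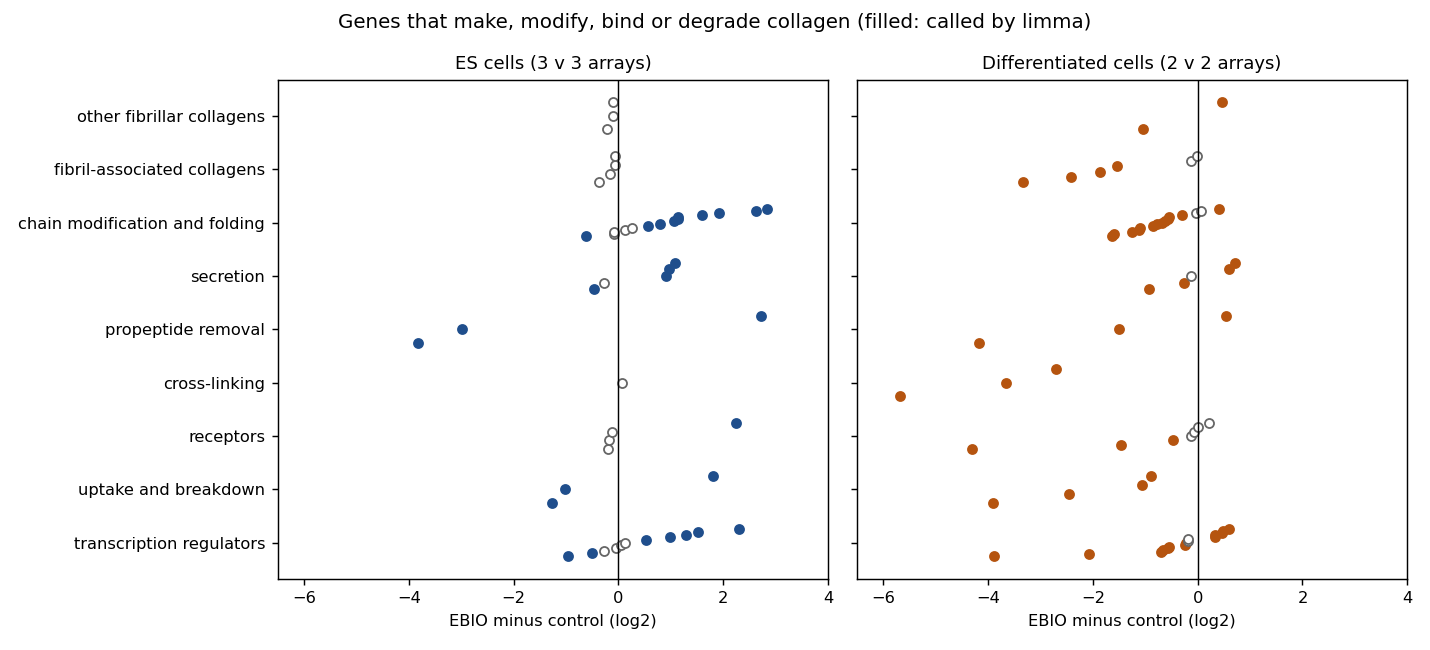
Difference between EBIO and control (log2) of each tested gene by role, in ES cells (left, 3 against 3 arrays) and in differentiated cells (right, 2 against 2 arrays). Filled points were called by limma and open points were not. The points for chain modification lie mostly right of 0 in ES cells and left of 0 in differentiated cells, and the 3 cross-linking genes lie far to the left in differentiated cells.

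Markers of several cell types also differed with EBIO, in both directions. In differentiated cells 9 of 10 tested fibroblast and mesenchyme markers fell with EBIO and 1, Twist1, rose, with a median of -2.99. Lum and Dcn, small proteoglycans that bind collagen fibrils, differed by -8.30 and -5.66. The mean level of the 12 markers was 9.19 to 9.21 on the control arrays and 6.19 to 6.20 on the EBIO arrays, where Thy1, Lum, Prrx1, Tcf21, Fap and S100a4 lay under the median. Of the tendon markers 2 of 2 tested fell, and of the notochord markers 2 of 2, whereas Alpl, Ibsp, Dmp1 and Phex, 4 of the 5 measured bone markers, lay under the median in both groups.

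Other cell types moved as well. All 7 cardiac muscle markers rose, their mean level going from between 8.99 and 9.11 to between 12.99 and 13.03. All 5 macrophage markers fell, from a mean level of 11.03 to 11.23 to one of 4.54 to 4.57, and all lay under the array median with EBIO. All 4 endothelial markers fell, from 7.96 to 7.99 down to 4.97 to 5.02, with Pecam1, Cdh5 and Tek under the median. The 4 epithelial markers fell as well, from 10.49 to 10.54 down to 8.68 to 8.89, and 4 of 5 endoderm markers fell, their level going from 9.85 to 10.06 down to 7.54 to 7.58. Of the neural markers 3 of 4 tested rose and 1 fell, Pax6 at 1.68, Map2 at 1.53 and Nes at -0.77, with a mean level of 5.79 to 5.81 without and 6.51 to 6.57 with EBIO. Of the ES cell markers 1 of 2 tested fell, and of the cartilage markers 3 of 5. Smooth muscle markers gave 3 rises and 2 falls of 5, with a mean level of 9.21 on the control arrays and 9.35 on the EBIO arrays. Tested markers that lay under the median on both EBIO arrays passed the filter through the control arrays alone, so they could only fall. This holds for all 5 macrophage markers, for Pecam1, Cdh5 and Tek, and for Thy1, Lum, Tcf21 and S100a4. It also holds for the tested tendon markers Scx and Mkx and for the endoderm markers Afp and Sox17. The same is true of Matn4 and Col9a2 of cartilage and of Sox2 among the ES cell markers. Pax6 and Map2 lay under the median on both control arrays, so they could only rise. The part that a change in these cells had in the fall of the collagen genes was not tested.

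In ES cells the 12 fibroblast markers stayed at a mean of 4.36 to 4.54 without and 4.29 to 4.44 with EBIO, where 9 lay under the median on every array, and neither of the 2 tested was called. Smooth muscle markers gave 3 rises and 1 fall of 4, with Acta2 at 4.94 and Tagln at 4.80, and a mean level of 5.26 to 5.86 without and 7.22 to 7.37 with EBIO. Of the 4 epithelial markers the keratin genes Krt8 and Krt18 rose by 4.75 and 4.08 and Epcam fell by 0.45, with a mean level of 8.52 to 9.27 without and 10.88 to 11.37 with EBIO. All 5 ES cell markers fell, Pou5f1 by 4.20, from a mean of 11.18 to 11.41 down to 8.23 to 8.71. Of the other lists, endothelial markers gave 2 falls of 3 tested, macrophage markers 1 fall of 3, bone markers 1 fall of 2, cardiac markers 1 rise of 2, endoderm markers 1 rise and 1 fall of 4 and neural markers 2 rises and 1 fall of 5. The cardiac rise, Actc1, and 1 of the neural rises, Map2, lay under the median on every untreated array, so they could only rise. Tek, 1 of the endothelial falls, lay under the median on every EBIO array, so it could only fall. Cartilage and notochord markers gave no call among 7 and 2 tested, and no tendon marker was tested. The part of these marker changes in the rise of Col5a1 was not tested.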

How the data were processed

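RNA was measured on 10 Affymetrix arrays. The authors deposited log2 values; the submitters' processing notes name RMA, whose version is not given in the sources used here. This method subtracts background, equalises the distributions of a set of arrays and summarises probes, so differences between dim probe sets are compressed.

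Of 45101 probe sets, 64 were controls, 34958 had 1 symbol, 932 several and 9211 none in the platform annotation; 34754 symbols were updated through RefSeq. For a gene with several probe sets, the one brightest on average across the 10 arrays was used. Genes entered a test if above the array median on as many arrays as the smallest group held (3 in ES cells, 2 in the fits with differentiated cells). Tests used limma 3.58.1 in R 4.3.3 with Benjamini-Hochberg adjustment over all genes tested and a threshold of 0.05, each stage on its own arrays, and were checked on simulated data. Numbers of arrays, not read depth, limit the precision.

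All 10 members are named. Of each role and marker list, at most the 2 called genes with the largest change in each direction are named per comparison; members and lists were chosen with earlier results of these data known. Other genes named lay under the median, were compared across stages or share a complex with a named gene. In ES cells replicate numbers pair arrays by passage, and deviations of same-numbered arrays correlated at 0.33, 0.23 and 0.62. Alternatives covered probe set choice, filter, normalization, variance moderation, a replicate block, a joint fit and leaving out each array.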

Additional observations from a re-analysis of the deposited data

Results flagged for a closer look

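The difference between the EBIO effects of the 2 stages, tested in a limma fit over the 4 groups, passed the threshold for 9 collagen genes, which is what singled them out. Differentiated minus ES effect (log2) was -5.85 for Col1a1, -7.62 for Col1a2 and -3.01 for Col3a1. It was -2.89 for Col5a1, -4.88 for Col5a2 and -2.39 for Col11a1. Among the type VI genes it was -5.78 for Col6a1, -4.83 for Col6a2 and -4.83 for Col6a3. In ES cells Col1a1, Col3a1, Col5a2, Col11a1 and Col6a1 were too dim for a test of their own. Of these 9 genes, Col5a1 was called in each stage, higher in ES cells (1.47) and lower in differentiated cells (-1.43).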

How the results depend on the processing

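In differentiated cells 9 to 10 members were lower under each of 15 alternatives, and the stage difference was lower for 9 members under each of 17. Col5a1 was called higher in ES cells under all 15 alternatives run for it. With the replicate block, 1 member, Col2a1, was called lower in ES cells (none otherwise) and no other member call changed. In differentiated cells, where numbers pair nothing known and same-numbered deviations correlated at -0.129, the replicate block called 3732 genes higher and 3761 lower, and a crossed replicate block, added after seeing the data, 4075 and 4040, with 10 members lower in both. One fit over the 4 groups called 2 members higher in ES cells, Col5a1 and Col11a1, and 2576 genes higher in differentiated cells against 4110. A filter at the 75th percentile, which tests fewer genes, left 2526 genes lower against 4022. Small uncalled differences changed sign as arrays were left out: in ES cells Col1a2 ranged from -0.051 to 0.0447, Col6a2 from -0.139 to 0.0344 and Col6a3 from -0.231 to 0.0858, and the stage difference of Col2a1 from -0.226 to 0.0801. Quantile normalization of all arrays turned that difference to 0.15, and the untreated stage comparison of Col2a1 to -1.17. Beyond these constructions the cause was not tested. With 2 arrays a group in differentiated cells, leaving out 1 leaves a single array that is assumed to vary like the others. Signal over the array median limits ES cells, where the number of members tested went from 1 to 10 with the filter.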
